A study of Homo sapiens with 12 samples.

Results

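The genes carried by the mitochondrial DNA were followed in 4 A549 lines that differ in the aryl hydrocarbon receptor (AHR) they overexpress. Members were the rows of the deposited table whose symbol starts with MT- and whose chromosome is MT. They numbered 37 of the 60623 genes in the table, and comprised 13 protein genes, 2 ribosomal RNA genes (MT-RNR1 and MT-RNR2) and 22 transfer RNA genes. A549 is a human lung adenocarcinoma cell line. Lentivirus brought the empty vector pLV-EF1a-IRES-Hygro (V), HA-tagged wild-type AHR (WT), HA-AHR with the change S489A (SA) or HA-AHR with the change S489D (SD) into A549 cells, and all 4 lines, V included, were selected with hygromycin at 200 ug/ml for 72 h. The serine replaced in both changes is a site of the kinase PLK1 in the study, alanine at its place cannot be phosphorylated, and aspartate served as a mimic of the phosphorylated form. Each line gave 3 libraries labelled as biological replicates, 12 libraries in all, made from poly(A)-enriched RNA of cells in RPMI medium with 10% serum. Every construct was carried by 1 stable line, so the AHR form and any other difference between the lines cannot be told apart. The p-values concern libraries of 1 line, not lines made anew, and edgeR moderates the spread of each gene by that of other genes.

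Human mitochondrial DNA is a small circle whose strands are each transcribed into long RNAs that run across many genes. The transfer RNAs lie between the other genes, and cutting them out releases the messenger and ribosomal RNAs. All 13 proteins are subunits of the respiratory chain or of ATP synthase and work together with many subunits encoded in the nucleus. Most of the messenger RNAs receive a short poly(A) tail, MT-ND6 RNA is the known exception in human cells, and the ribosomal RNAs carry only a few added adenines.

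In the deposited GRCh38 coordinates, 28 of the 37 genes lie on the plus strand and 9 on the minus strand, namely MT-ND6 and 8 transfer RNA genes. In 6 of the 13 protein genes the annotated gene ends before the stop codon is complete. In these genes the last 1 or 2 bases start a stop codon, and the adenines that complete it are added with the poly(A) tail, the same tail by which the libraries were selected. The last 15 bases of these 6 genes on chrM of GRCh38, plus strand, are shown with the bases beyond the last whole codon in capitals.
MT-ND1, chrM:4248-4262: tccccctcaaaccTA
MT-ND2, chrM:5497-5511: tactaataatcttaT
MT-CO3, chrM:9976-9990: attgatgagggtctT
MT-ND3, chrM:10390-10404: tagactgaaccgaaT
MT-ND4, chrM:12123-12137: ccgggttttcctctT
MT-CYB, chrM:15873-15887: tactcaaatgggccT

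The genes are packed so tightly that some share bases, which bears on how reads were divided between them. MT-ATP8 and MT-ATP6, which encode subunits of ATP synthase and are carried on the same messenger RNA, share 46 bases. MT-ND4L and MT-ND4, subunits of complex I that also share a messenger RNA, have 7 bases in common, and MT-ATP6 and MT-CO3 have 1. The shared bases are in capitals, with the neighbouring bases of both genes in lower case, on the plus strand of GRCh38.
MT-ATP8/MT-ATP6, chrM:8524-8575: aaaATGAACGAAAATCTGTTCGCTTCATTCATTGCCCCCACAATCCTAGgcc
MT-ND4L/MT-ND4, chrM:10751-10775: cctactccaATGCTAAaactaatcg

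Copies of mitochondrial DNA also lie in the nuclear chromosomes and can take reads from the genes they resemble. The copy with the most counts was MTATP6P1 (chr1:633696-634376, plus strand), a copy of MT-ATP6 (chrM:8527-9207). Of its 681 bases, 10 differed from MT-ATP6, an identity of 98.5%, and the longest stretch without a difference was 141 bases. A window around the first difference, G19A counted from the first base of MT-ATP6, is shown with the differing base in capitals.
MT-ATP6, chrM:8531-8560: acgaaaatctgttcGcttcattcattgccc
MTATP6P1, chr1:633700-633729: acgaaaatctgttcActtcattcattgccc

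The libraries held between 7844045 and 11765576 expected counts. Levels are given as CPM, the count relative to the normalized size of the library. AHR was present at 65.9 to 74.4 CPM in V, and at 234 to 285 CPM in WT, 220 to 230 in SA and 202 to 220 in SD. Every WT library thus lay above every SA and SD library, so the AHR forms were not compared at equal AHR RNA. The part of this difference in the results was not tested. Of 13 epithelial and A549 markers, 9 exceeded a mean of 1 CPM, led by the keratins KRT8 (2724 CPM) and KRT18 (2228 CPM). EPCAM was low (0.382 to 1.75 CPM), and the lung epithelial markers NKX2-1 and SFTPC reached no more than 0.206 and 0.382 CPM. Of 14 markers of other cell types, 4 exceeded 1 CPM, the highest being CD68 (29.8 CPM) and ACTA2 (17.4 CPM), while CD3E, VWF, DCN and COL1A2 had no count and PTPRC and PECAM1 reached at most 0.171 and 0.316 CPM. The summed epithelial markers ranged from 9023 to 9351 CPM in V, 7752 to 7855 in WT, 7551 to 7719 in SA and 6969 to 7264 in SD. Their sum was thus lower in every AHR line than in V, and its part in the results was not tested. The summed markers of other cell types overlapped between all lines, with 52.4 to 69.9 CPM in V, 56.3 to 58.9 in WT, 58.8 to 66.7 in SA and 56.1 to 65.1 in SD.

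The transfer RNA genes, which bring amino acids to the mitochondrial ribosome, were practically not measured. They span 59 to 75 bases, and 21 of the 22 had no count in any library. MT-TS1, the transfer RNA gene for serine on the minus strand, had 1 count in V replicate 2 and 1 in SD replicate 2. A count of 0 allows a level of up to 0.255 to 0.382 CPM, depending on the depth of the library (3 counts of the total, counting error only). Of 15 nuclear RNAs that lack a poly(A) tail, 8 had no count and 2, RN7SL1 and RN7SL2 of the signal recognition particle, exceeded a mean of 1 CPM, and neither was called in any comparison. The libraries therefore give no measure of these genes in any line, and the results below concern the 15 protein and ribosomal RNA genes, all of which passed the filter on low counts in every comparison.

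The 15 genes differed widely in level per kilobase of gene length (CPM per kb). MT-CO1, the catalytic subunit of complex IV, was highest, with a median of 14327 CPM per kb over the 12 libraries and a range of 11861 to 16755. The next positions were taken by MT-CO2 and MT-CO3, the other mitochondrial subunits of complex IV, with medians of 9966 and 9960 CPM per kb, and by MT-ATP6 with 9112. MT-RNR2, the RNA of the large ribosomal subunit, followed with a median of 7219 CPM per kb (range 6038 to 10059). The complex I gene MT-ND4 had a median of 6350 CPM per kb. MT-ND2 had 5407, MT-CYB, the only mitochondrial subunit of complex III, had 4950, and MT-ND1 had 4594. A step lay between MT-ND1, with 4168 CPM per kb in its lowest library, and MT-ND3, with 3090 in its highest. Below it stood MT-ND3 (median 2609 CPM per kb), MT-ND4L (1946), MT-ND5 (1743), the small ribosomal RNA MT-RNR1 (1156) and MT-ND6 (917). MT-ATP8 was lowest, with a median of 349 CPM per kb and 425 in its highest library, against 770 in the lowest library of MT-ND6. For every other neighbouring pair in this order, the ranges over the 12 libraries overlapped. Although MT-ATP8 and MT-ATP6 share a messenger RNA, the count of MT-ATP8 was between 0.00679 and 0.0151 of that of MT-ATP6. The count of MT-ND4L was between 0.0408 and 0.0747 of that of MT-ND4. These genes are short or overlap, and RSEM assigns each read to a gene of its annotation, so such ratios within a messenger RNA reflect counting as well as abundance and the share of each was not tested. Ribosomal RNA levels are those of molecules caught by poly(A) selection.

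Together, the mitochondrial genes took between 7.33% and 10.1% of all expected counts. The share was 9.70%, 8.57% and 9.07% in the 3 V libraries (mean 9.11% ± 0.566, SD, n = 3) and 8.13%, 8.46% and 7.73% in WT (8.11% ± 0.365). The SA libraries gave 8.81%, 8.35% and 7.33% (8.16% ± 0.760), and the SD libraries 10.1%, 8.93% and 7.92% (8.98% ± 1.07). All WT libraries lay below all V libraries, with a two-sided exact permutation p of 0.1, the smallest that 3 against 3 allows, and every other pair of lines overlapped. The SD line held both the highest library of all and one below every V library.

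**Figure D1:**
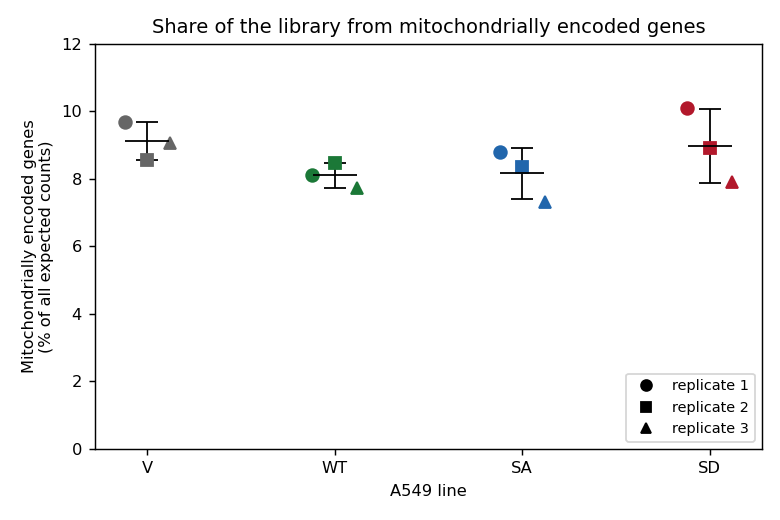
Percent of all expected counts that came from mitochondrially encoded genes (y axis) in the 4 A549 lines (x axis). Each symbol is 1 library, bars are the mean and SD of 3 libraries. The 3 WT libraries (7.73% to 8.46%) lie below the 3 V libraries (8.57% to 9.70%), and the SD libraries spread from 7.92% to 10.1%.

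Within a line, the genes rose and fell together from library to library. SA replicate 1 was the highest and SA replicate 3 the lowest SA library for all 15 genes. SD replicate 1 was the highest SD library for 13 genes and SD replicate 3 the lowest for all 15. In V, replicate 1 was the highest for 14 genes, and in WT, replicate 3 was the lowest for 13. In SA and SD the nuclear retained RNAs NEAT1 and MALAT1 moved between the same libraries. NEAT1 stood at 1470, 1103 and 1060 CPM in SA replicates 1 to 3 and at 1544, 1249 and 1149 CPM in SD. MALAT1 stood at 744, 686 and 598 CPM in SD. NEAT1 also fell from replicate 1 to 3 in V (1306, 1170 and 1104 CPM) and WT (1300, 1115 and 1020 CPM). There the match was weaker, as V replicate 2 was the lowest V library and WT replicate 2 the highest WT library for 9 genes each. What the libraries had in common was not tested. The median coefficient of variation of the 15 CPM levels was 6.99% for V, 5.86% for WT, 9.33% for SA and 11.4% for SD. When each gene was expressed as its share of the mitochondrial counts of its library, the median fell to 3.37%, 2.11%, 2.29% and 2.23%. The makeup of the mitochondrial counts was thus steadier between libraries of a line than their amount.

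**Figure D2:**
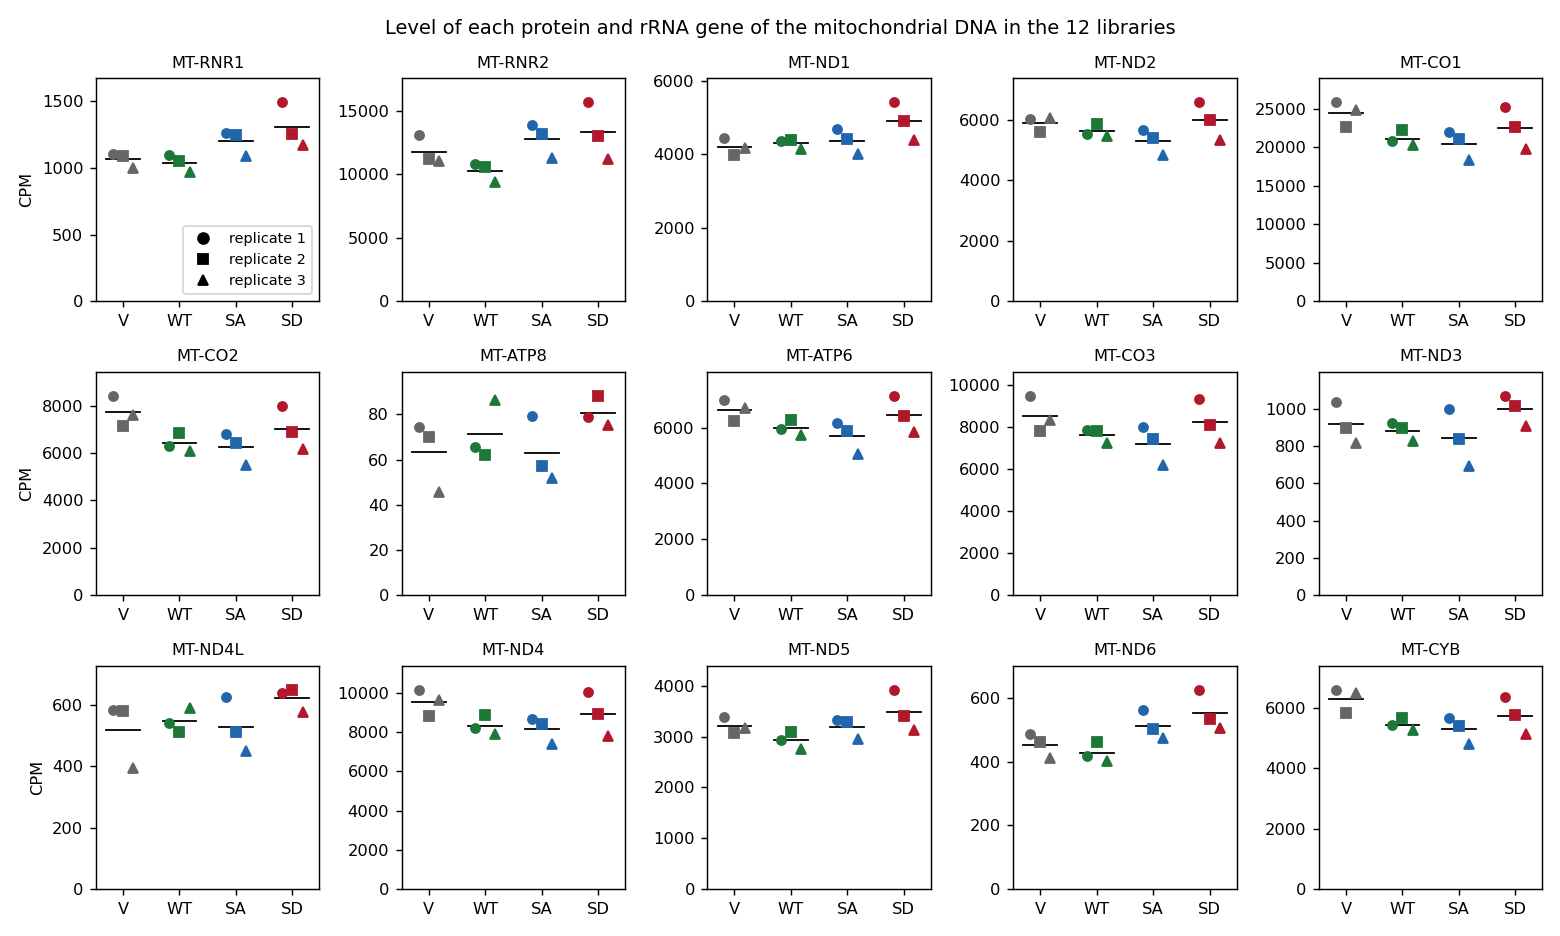
CPM (y axis, from 0) of the 15 mitochondrial protein and ribosomal RNA genes in the 4 lines (x axis), in the order of the mitochondrial DNA. Each symbol is 1 library and the horizontal bar is the mean of 3 libraries. MT-RNR2 ran from 9414 CPM in WT replicate 3 to 15682 CPM in SD replicate 1, and replicate 3 of SA and of SD was the lowest library of its line in all 15 panels.

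The comparison of SD with WT asks what the mimic of phosphorylation changes relative to wild-type AHR. Both ribosomal RNAs and MT-ND6, the complex I gene on the minus strand, were higher in SD, and the other 12 genes did not pass the test. The same 3 genes were described above as having no poly(A) tail or only a few added adenines. In poly(A)-enriched libraries their level and their capture cannot be told apart. In edgeR's quasi-likelihood test (Benjamini-Hochberg adjusted p under 0.05) 3 of 15 genes were called, all higher in SD, against a background of 0.708% of the 14828 genes tested called in either direction and 0.513% called higher. The 15 genes rose and fell together between libraries, so calls among them are not independent, here and in the comparisons below. The share over all genes is given for scale and is not a test of enrichment. All 15 log2 fold changes were positive, with a median of 0.18 against 0.00 over all genes tested.

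MT-ND6 stood at 627, 534 and 506 CPM in SD and at 420, 463 and 404 CPM in WT. Every SD library lay above every WT library, the means being 556 ± 63.1 and 429 ± 30.3 CPM. The log2 fold change was 0.37 (SE 0.07, edgeR adjusted p = 0.00626). MT-RNR2 stood at 15682, 13032 and 11215 CPM in SD and at 10823, 10582 and 9414 CPM in WT. The lines did not overlap, although SD replicate 3 lay much nearer to WT than SD replicate 1 did. Its log2 fold change was 0.37 (SE 0.08, edgeR adjusted p = 0.0298). MT-RNR1, the RNA of the small ribosomal subunit, stood at 1493, 1258 and 1172 CPM in SD and at 1099, 1054 and 970 CPM in WT. It too did not overlap, with a log2 fold change of 0.33 (SE 0.07, edgeR adjusted p = 0.0233). The largest complex I gene, MT-ND5, also separated the lines (3920, 3407 and 3139 CPM in SD, 3089 CPM in the highest WT library) and did not pass the test (log2 fold change 0.25, SE 0.07, edgeR adjusted p = 0.0858). These 4 were the genes whose SD and WT libraries did not overlap, 4 of 15, where 16.0% of all genes tested did not overlap.

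The remaining 11 genes, MT-CO1, MT-CO2 and MT-CO3 among them, overlapped between SD and WT. MT-CO1 stood at 25260, 22616 and 19753 CPM in SD and at 20779, 22256 and 20341 CPM in WT. Its lowest SD library was thus below all WT libraries, and its log2 fold change was 0.09 (SE 0.07, edgeR adjusted p = 0.695). MT-CYB differed least, with a log2 fold change of 0.08 (SE 0.07, edgeR adjusted p = 0.736). MALAT1, a nuclear retained RNA of no mitochondrial origin, was also higher in SD than in WT (log2 fold change 0.34, SE 0.07, edgeR adjusted p = 0.00987), and its part in the ribosomal RNA result was not tested. RN7SL1 and RN7SL2, cytoplasmic RNAs without a poly(A) tail and the members of that list with enough counts to be tested, had log2 fold changes of 0.41 and 0.47 in SD against WT (SE 0.21 and 0.22), and neither was called. Their part was likewise not tested. The number of genes called was 0 without WT replicate 1 or without WT replicate 3, 1 without WT replicate 2 or without SD replicate 2, and 6 without SD replicate 3. DESeq2 called 1 of the 15, MT-ND6. For MT-RNR2 its SE was 0.15, against 0.08 in edgeR, and its adjusted p was 0.397.

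SD and SA carry the opposite changes of the same serine. None of the 15 genes was called between them by edgeR, where 0.220% of the 15030 genes tested were called, and DESeq2 called none as well. With the replicate number as a block, edgeR called 11 of the 15, all higher in SD, against 1.10% of all genes. All 15 log2 fold changes were positive, with a median of 0.16 and a range of 0.06 to 0.37, and 7 genes had an unadjusted p under 0.05. The libraries of the lines overlapped for all 15 genes, while 13.6% of all genes tested did not overlap. This overlap disregards the replicate number, although replicate 3 was the lowest library of both lines for all 15 genes. Replicate 1 was the highest for all 15 in SA and for 13 in SD. The largest difference was that of MT-ATP8, at 78.9, 88.1 and 75.2 CPM in SD and at 79.5, 57.1 and 51.8 CPM in SA. SA replicate 1 lay within the SD range and the other SA libraries below it, and the log2 fold change was 0.37 (SE 0.11, edgeR adjusted p = 0.266). MT-RNR2, at 13857, 13200 and 11294 CPM in SA, was the gene that differed least from SD (log2 fold change 0.06, SE 0.09, edgeR adjusted p = 0.913). Without SA replicate 1, 3 genes were called, namely MT-ATP8, MT-ND3 and MT-ND4L, the shortest of the 15, and the same 3 were called when every gene with at least 1 count was tested.

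Between WT and SA, MT-RNR2 was the only one of the 15 genes called, and it was lower in WT. Its 3 WT libraries (10823, 10582 and 9414 CPM) all lay below its 3 SA libraries (13857, 13200 and 11294 CPM), with a log2 fold change of -0.32 (SE 0.06, edgeR adjusted p = 0.0362). The background was 0.0803% of the 14942 genes tested, and 0.0602% called lower. MT-ND6 was lower in every WT library than in every SA library as well (420, 463 and 404 CPM against 563, 503 and 474 CPM), and it did not pass the test (log2 fold change -0.26, SE 0.06, edgeR adjusted p = 0.122). These were the 2 genes of 15 that did not overlap, against 12.8% of all genes. DESeq2 called 2 genes lower in WT, MT-ND6 and MT-RNR1, and MT-RNR2 was not called by it. RN7SL1 and RN7SL2 differed in the same direction by log2 fold changes of -0.26 and -0.58 and were not called, and their part was not tested. For MT-RNR1, MT-RNR2 and MT-ND6, level and capture by the poly(A) tail cannot be told apart here either. The call of MT-RNR2 was lost without any single WT library and without SA replicate 2. The 3 complex IV genes differed by log2 fold changes of 0.04 to 0.08 and MT-CYB by 0.04, and none of them passed the test.

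The vector line shows what the overexpression of AHR in any form goes with, and it was the common control of the next 3 comparisons, which are therefore not independent of each other. In WT, 7 of 15 genes were lower than in V and none was higher, with 5.24% of 14772 genes called in all and 2.93% called lower. They were the 3 complex IV genes, MT-CYB, MT-ND4, MT-ATP6 and MT-RNR2. In SA, 6 of these, MT-RNR2 being the exception, were called lower than in V and MT-RNR1 was called higher (7.17% of 14913 genes called, 3.29% lower and 3.88% higher). In SD, no gene was called lower than V, while MT-RNR1, MT-ND1 and MT-ND6 were called higher (5.41% of 14890 genes called, 2.92% higher). The median of the 15 log2 fold changes was -0.14 for WT, -0.12 for SA and 0.12 for SD, each against 0.00 over all genes.

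MT-CO2, the complex IV subunit that takes electrons from cytochrome c, fell most in WT and SA. It stood at 8401, 7136 and 7603 CPM in V, at 6280, 6824 and 6098 CPM in WT and at 6810, 6409 and 5492 CPM in SA. Both lines lay entirely below V, by a log2 fold change of -0.27 in WT (SE 0.04, edgeR adjusted p = 0.000182) and of -0.31 in SA (SE 0.06, edgeR adjusted p = 0.00124). In SD it stood at 7992, 6897 and 6155 CPM, which overlapped V, and its log2 fold change was -0.13 (SE 0.07, edgeR adjusted p = 0.344). MT-CO1 stood at 25836, 22644 and 24874 CPM in V, and the highest libraries of WT (22256 CPM) and SA (21930 CPM) were below the lowest of V. Its log2 fold change was -0.21 in WT (SE 0.04, edgeR adjusted p = 0.000617) and -0.26 in SA (SE 0.05, edgeR adjusted p = 0.00249). MT-CYB stood at 6590, 5831 and 6492 CPM in V, at 5416, 5650 and 5252 CPM in WT and at 5646, 5388 and 4813 CPM in SA. It too lay below V in all libraries of WT (log2 fold change -0.21, SE 0.04, edgeR adjusted p = 0.000779) and of SA (-0.26, SE 0.05, edgeR adjusted p = 0.00217).

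MT-CO3, MT-ATP6 and MT-ND4 fell in the same lines by smaller or less even steps. Their log2 fold changes were -0.16, -0.15 and -0.20 in WT and -0.24, -0.22 and -0.23 in SA. For MT-CO3 the SA libraries (7983, 7403 and 6199 CPM) overlapped those of V (9452, 7780 and 8314 CPM) because of SA replicate 1 and V replicate 2. Counted over the 15 genes, 4 did not overlap between WT and V, 5 between SA and V and 3 between SD and V, where 21.9%, 23.8% and 21.4% of all genes did not overlap. The share of genes that separated from V was thus near that of genes in general. The calls of MT-CO1, MT-CO2 and MT-CYB in WT and SA were kept without any single library, whereas the number of genes called fell to 3 in both comparisons without V replicate 1, the V library with the most mitochondrial counts, and to 4 in WT without WT replicate 3. With all 12 libraries in one fit, MT-CO2 was the only gene called in WT, MT-CO1 and MT-CYB having adjusted p = 0.0896 and 0.0610 by edgeR, and 4 genes were called in SA, where MT-RNR1, MT-CO3 and MT-ND4 lost their calls. DESeq2 called 4 genes in WT, all lower, and 2 in SA, MT-CYB lower and MT-RNR1 higher, so that MT-CO1 and MT-CO2 were not called in SA.

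Complex I genes did not move as a block. MT-ND1, which lies next to the ribosomal RNAs, stood at 4452, 3985 and 4165 CPM in V and at 5417, 4900 and 4385 CPM in SD. Only SD replicate 3 lay within the V range, and the log2 fold change was 0.22 (SE 0.06, edgeR adjusted p = 0.0353), a call that was lost without any single library other than SD replicate 3. In WT and SA, MT-ND1 differed from V by log2 fold changes of 0.03 and 0.06 (SE 0.04 and 0.05) and was not called. MT-ND6 was 488, 464 and 412 CPM in V, below every SD library, with a log2 fold change of 0.29 in SD (SE 0.07, edgeR adjusted p = 0.00960). In SA its log2 fold change was 0.17 (SE 0.06, edgeR adjusted p = 0.0773). MT-ND4 was called lower in WT and SA, and MT-ND2, MT-ND3, MT-ND4L and MT-ND5 were called in none of the 3 comparisons with V. MT-RNR1 stood at 1106, 1093 and 997 CPM in V, with a log2 fold change of 0.30 in SD (SE 0.07, edgeR adjusted p = 0.00691), whose libraries all lay above V, and of 0.17 in SA (SE 0.05, edgeR adjusted p = 0.0474), whose libraries overlapped V. MALAT1 was lower in WT than in V (log2 fold change -0.18, SE 0.04, edgeR adjusted p = 0.0104), as MT-RNR2 was (-0.20, SE 0.05, edgeR adjusted p = 0.0114), and what they share was not tested. The SD calls depended on the library: without V replicate 3, none of the 15 genes was called, without SD replicate 3, 6 were called higher, and without SD replicate 1, 2 were called higher and 4 lower (MT-CO1, MT-CO2, MT-ND4 and MT-CYB).

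**Figure D3:**
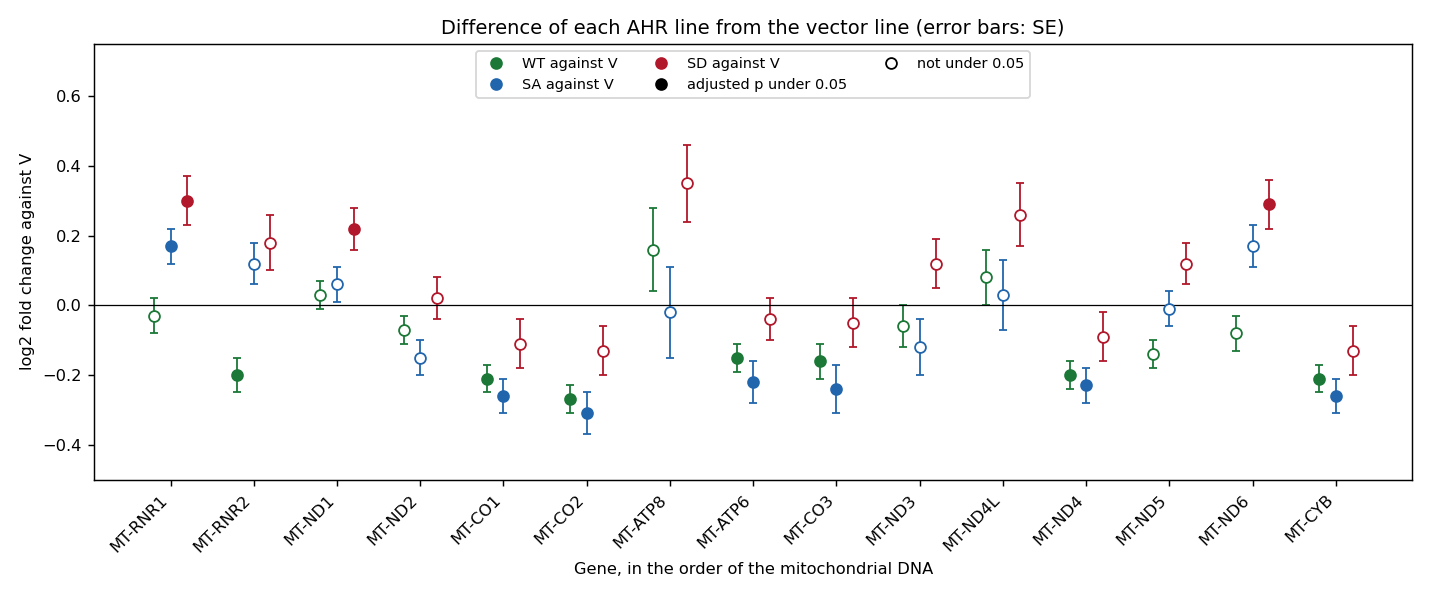
Log2 fold change against V (y axis) of WT, SA and SD for the 15 genes in the order of the mitochondrial DNA (x axis), from edgeR, with bars of 1 SE. Filled symbols passed an adjusted p of 0.05 and open ones did not. MT-CO1, MT-CO2 and MT-CYB lie between -0.31 and -0.21 in WT and SA, and MT-RNR1 and MT-ND6 are at 0.30 and 0.29 in SD.

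Expressed as shares of the mitochondrial counts, the lines differed in makeup in a way that the varying amount per library did not blur. Shares of 1 library add up to the whole, so a rise of one gene lowers the others, and no such share exists for other genes as a background. MT-ND1 made up 4.56%, 4.67% and 4.59% of the mitochondrial counts in V. It made up 5.38%, 5.20% and 5.36% in WT, 5.31%, 5.25% and 5.49% in SA and 5.33%, 5.47% and 5.53% in SD. All 9 libraries of the AHR lines were thus above V, and they overlapped one another. MT-CO2 showed the opposite order, with 8.60%, 8.35% and 8.38% in V and no more than 8.07% in any AHR library. The ratio of MT-ND1 to MT-CO1 was 0.167 to 0.176 in V and 0.198 to 0.222 in the other lines, while the ratio of MT-ND4 to MT-CO1 stayed between 0.387 and 0.405 in all 12 libraries.

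A different split separated V and WT from SA and SD. MT-RNR2 made up 13.4%, 13.1% and 12.2% of the mitochondrial counts in V and 13.3%, 12.5% and 12.2% in WT. It made up 15.7%, 15.7% and 15.4% in SA and 15.4%, 14.6% and 14.2% in SD. MT-ND6 followed it, with 0.454% to 0.547% in V and WT and 0.596% to 0.649% in SA and SD. The SA and SD libraries lay above all V and WT libraries for both genes, and for MT-RNR1 (1.40% to 1.49% against 1.10% to 1.35%) and MT-ND5 (3.77% to 4.05% against 3.47% to 3.65%). MT-CO1 took 25.6% to 27.4% in V and WT and 24.8% to 25.3% in SA and SD, and MT-CYB took 6.67% to 7.15% and 6.26% to 6.58%. Both genes thus had lower shares in SA and SD than in every V and WT library. MT-RNR1, MT-RNR2 and MT-ND6 have no poly(A) tail or only a few adenines, so for them makeup and capture cannot be told apart. How far the lower shares of MT-CO1 and MT-CYB only mirror the higher share of MT-RNR2 was not tested.

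Of the 15 shares, 11 did not overlap between WT and SA, 9 between SD and WT and 2 between SD and SA. In the last pair, MT-RNR2 was lower in SD by a ratio of 0.942, and each such share that did not overlap had an exact permutation p of 0.1, the smallest possible here. Against V, 4 shares did not overlap in WT, 11 in SA and 9 in SD. By an exact permutation test, 3 libraries a line cannot place these shares under 0.05.

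**Figure D4:**
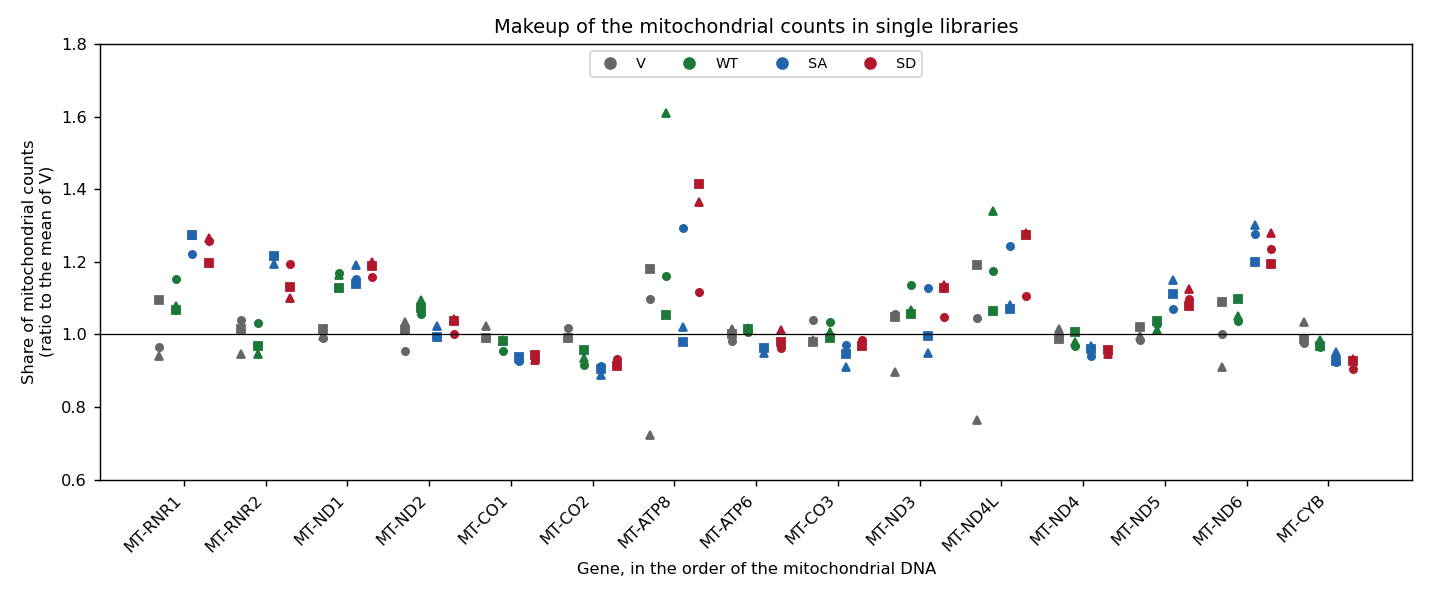
Share of the mitochondrial counts of each library, divided by the mean share in V (y axis), for the 15 genes in the order of the mitochondrial DNA (x axis). Each symbol is 1 library, coloured by line, with circles, squares and triangles for replicates 1, 2 and 3. For MT-ND1 all AHR libraries lie above V, and for MT-RNR1, MT-RNR2, MT-ND5 and MT-ND6 those of SA and SD lie above those of V and WT.

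The short genes spread most between the V libraries. MT-ATP8 (207 bases) stood at 74.5, 70.1 and 45.5 CPM in V, so that V replicate 3 had 0.611 times the level of V replicate 1. MT-ND4L (297 bases) and MT-ND3 (346 bases) stood in the same libraries at ratios of 0.676 and 0.786, whereas MT-CO1 (1542 bases) stood at 0.963 and MT-ND5 (1812 bases), the longest, at 0.937. The ratio did not follow length throughout, since MT-RNR2 (1559 bases) stood at 0.846, as low as MT-ND6 (525 bases) at 0.845, and MT-CO3 and MT-RNR1 stood at 0.880 and 0.901. In WT the deviating library was again replicate 3, in the other direction: MT-ATP8 stood at 65.5, 62.0 and 86.3 CPM and MT-ND4L at 542, 512 and 589 CPM. These were the 2 genes for which WT replicate 3 was the highest WT library, while it was the lowest for the other 13. MTATP6P1, the nuclear copy of MT-ATP6, moved with the short genes, at 302, 297 and 193 CPM in V and at 283, 290 and 350 CPM in WT. MT-ATP6 itself stood at 6994, 6231 and 6704 CPM in V and at 5957, 6257 and 5720 CPM in WT. The files do not give fragment lengths, and what the short genes and this copy share was not tested. None of MT-ATP8, MT-ND4L and MT-ND3 was called in any of the 6 comparisons, while some of the other settings called all 3 in SD against SA.

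**Figure D5:**
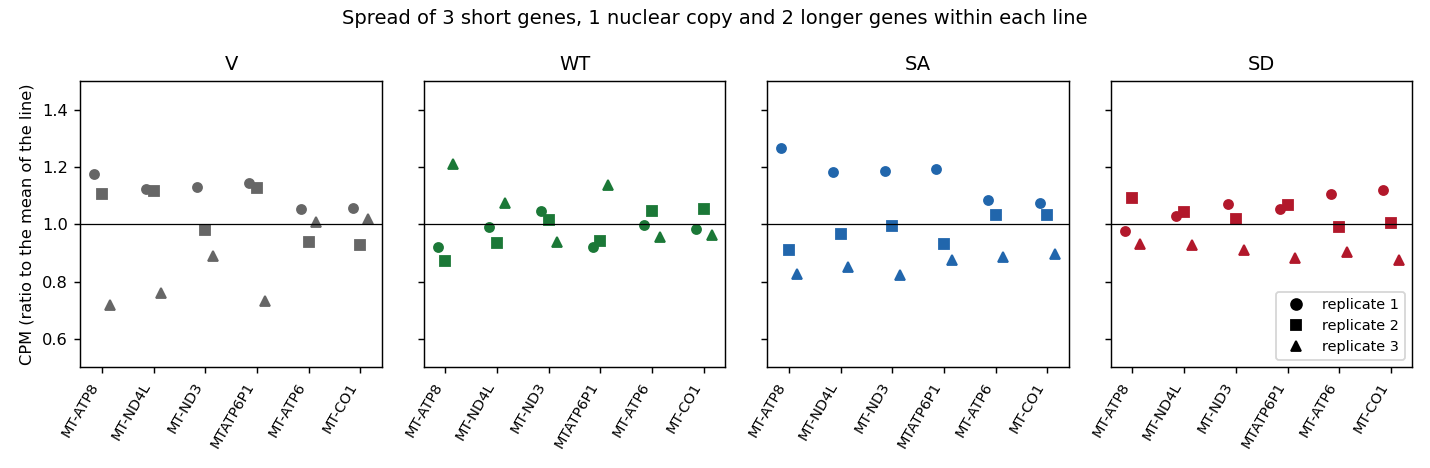
CPM divided by the mean of the line (y axis) for the short genes MT-ATP8, MT-ND4L and MT-ND3, the nuclear copy MTATP6P1 and the longer genes MT-ATP6 and MT-CO1 (x axis), in each line. Each symbol is 1 library. V replicate 3 is lowest and WT replicate 3 highest of its line for MT-ATP8, MT-ND4L and MTATP6P1, and neither holds for MT-ATP6 or MT-CO1.

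The nuclear copies held few counts. Of 407 rows for nuclear copies of mitochondrial genes, 363 had no count, and the others together held 0.406% to 0.626% of the mitochondrial count of a library, 97.6% of it in MTATP6P1 and MTCO1P12. MTATP6P1 took 2.80% to 5.77% of the counts it and MT-ATP6 held together, and MTCO1P12 (chr1:631074-632616, identity of 98.7%) took 0.594% to 0.848% of those it held with MT-CO1. The expected count of MTCO1P12 was fractional in all 12 libraries, so RSEM divided reads between this copy and other genes. MTCO1P12 was higher in SD than in WT (log2 fold change 0.33, edgeR adjusted p = 0.0254) and lower in WT than in V (-0.31, edgeR adjusted p = 0.00138). Reads of MT-CO1 and of this copy cannot be fully told apart. Adding all nuclear copies to the mitochondrial counts moved the mean share to 9.15% for V, 8.15% for WT, 8.21% for SA and 9.03% for SD. The kit's handling of strand is not stated in the sources used here, so counts of MT-ND6 may include RNA copied from the other strand at its place.

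Mitochondrial DNA is transcribed, and its RNA processed and translated, by proteins that nuclear genes encode. Of 21 genes of mitochondrial transcription and mitochondrial DNA maintenance, all tested, only PPARGC1A, a coactivator known for raising mitochondrial gene expression, was called, and it was lower in each AHR line than in V (1 of 21, where 5.24%, 7.17% and 5.41% of all genes were called in WT, SA and SD). It stood at 9.89, 9.03 and 14 CPM in V, at 5.09, 7.12 and 5.02 CPM in WT, at 7.43, 4.79 and 6.90 CPM in SA and at 5.01, 6.23 and 5.80 CPM in SD. Every V library lay above every AHR library, with log2 fold changes of -0.92 in WT (SE 0.20, edgeR adjusted p = 0.00475), -0.79 in SA (SE 0.20, edgeR adjusted p = 0.0134) and -0.95 in SD (SE 0.19, edgeR adjusted p = 0.00261). Even so, 1 of 21 was no higher a share than among genes in general, and the part of PPARGC1A in the mitochondrial results was not tested. POLRMT, the mitochondrial RNA polymerase, stood at 155 to 184 CPM and TFAM, which packs mitochondrial DNA and starts its transcription, at 70.6 to 83.2 CPM over the 12 libraries, and neither was called in any comparison. Of 28 genes of mitochondrial RNA processing and stability none was called in any comparison, including LRPPRC, which stabilizes mitochondrial messenger RNAs (283 to 328 CPM). Of 14 genes of mitochondrial translation, MRRF, the ribosome recycling factor, was called lower in SA than in V (log2 fold change -0.25, SE 0.07, edgeR adjusted p = 0.0405), and no other call was made.

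Nuclear genes encode the other subunits of the same enzyme complexes. Of 74 such subunits, 72 were found by symbol and tested. None was called in WT against V, where 5.24% of all genes were, nor in SD against WT (0.708% of all genes), SD against SA (0.220%) or WT against SA (0.0803%). In SA against V, NDUFB8 of complex I, UQCR11 of complex III and ATP5MC3 of ATP synthase were called higher, with log2 fold changes of 0.21, 0.26 and 0.22, and none was called lower, where 7.17% of all genes were called. In SD against V, NDUFA2 of complex I was called higher (log2 fold change 0.29, SE 0.08, edgeR adjusted p = 0.0393), where 5.41% of all genes were called. The 72 log2 fold changes against V had medians of 0.04 for WT and 0.06 for both SA and SD, each against 0.00 over all genes. For complex IV, none of the 11 nuclear subunits was called in any comparison, whereas all 3 mitochondrial subunits were called lower in WT and in SA than in V. DESeq2 called none of these 3 in SA, and with all 12 libraries in one fit only MT-CO2 of them was called in WT. The difference between the nuclear and mitochondrial subunits was not tested.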

How the data were processed

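RNA-seq libraries of 4 A549 lines (3 per line) were analysed. Per the submitters' processing notes and the methods of the study, the authors trimmed reads (Trimmomatic 0.39), quantified them with RSEM on the GRCh38 transcripts and deposited unnormalized expected counts per gene. A second deposited table holds the authors' log2 fold changes, p-values and q-values from edgeR for genes ordered SD > WT > SA = V, and was not used. Rounded expected counts went into edgeR 4.0.16 (R 4.3.3), with a separate fit for the 6 libraries of each pair, filterByExpr (minimum count 10, minimum total 15), TMM and the two-sided quasi-likelihood test, adjusted by Benjamini-Hochberg over all genes tested. SEs were derived from the F statistics. They rest on edgeR's moderated spread and can be smaller than the spread of the gene's own libraries would give. CPM used TMM-normalized library sizes of the 12 libraries (factors 0.993 to 1.005). Shares of mitochondrial counts used the unrounded expected counts, and single values were compared by exact permutation. Sequences were read from hg38 (GRCh38), and nuclear copies were aligned with Biopython 1.88. Totals ranged from 7844045 to 11765576 counts, and floors cover counting error only.

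The members and the lists were chosen with earlier results of these data known. All 37 members could be named, as could genes of the other lists with an adjusted p under 0.05 (at most 4 per list and comparison), POLRMT, TFAM, LRPPRC and the 5 nuclear copies with the most counts. NEAT1, RN7SL1, RN7SL2 and the markers given by level were named after their values were seen. No 2 libraries of a line agreed within sampling noise. The alternatives were DESeq2 size factors, library sizes without mitochondrial rows, DESeq2 1.42.0, other filters on low counts, 1 fit over all 12 libraries, a replicate block and leaving out each library. On simulated data for SD against WT (14615 genes), the test recovered 22% of changes of 1.2-fold, 61.2% of 1.5-fold and 86.0% of 2.0-fold, with 10 false calls. Figures were drawn with matplotlib 3.10.9.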

Additional observations from a re-analysis of the deposited data

Results flagged for a closer look

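In 4 instances the effect relative to V differed between AHR lines by a test of the difference itself, which is the edgeR comparison of the 2 lines. For SD minus WT this log2 difference was 0.33 for MT-RNR1, 0.37 for MT-RNR2 and 0.37 for MT-ND6. For WT minus SA it was -0.32 for MT-RNR2. In all of these genes, level and capture by the poly(A) tail cannot be told apart.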

How the results depend on the processing

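Over the 90 log2 fold changes (15 genes in 6 comparisons) and 1169 alternative values, the direction and the side of the threshold were kept in 1006, a call was lost in 66 and gained in 62. The sign changed in 35, spread over 23 differences, each time with a single library left out and with no call before or after. The number of genes called moved as follows. With DESeq2 it was 1 in SD against WT, 1 in SD against V, 2 in WT against SA, 2 in SA against V and 4 in WT against V. With every gene of at least 1 count tested it was 5 in SD against WT, 3 in SD against SA, 3 in WT against SA and 6 in SD against V, and with at least 10 counts in every library it was 5 in SD against V. With all 12 libraries in one fit it was 0 in WT against SA, 1 in WT against V and 4 in SA against V. When single libraries were left out it ranged from 0 to 6 in SD against WT, 0 to 3 in SD against SA, 0 to 1 in WT against SA, 3 to 8 in WT against V, 3 to 8 in SA against V and 0 to 6 in SD against V. With DESeq2 size factors, or with library sizes taken without the mitochondrial rows, each count stayed at its value. The causes of these changes were not tested. Without the 2 ribosomal RNAs the mitochondrial share was 7.93% for V, 7.05% for WT, 6.86% for SA and 7.63% for SD.

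With single libraries left out, the log2 fold changes whose sign changed ranged as follows, where an end at 0.00 lay just past 0 before rounding. In SD against WT the range was 0.00 to 0.16 for MT-CYB. In SD against SA the range was -0.08 to 0.17 for MT-RNR2. In WT against SA the range was -0.08 to 0.03 for MT-ND1, -0.02 to 0.10 for MT-CO1, -0.04 to 0.10 for MT-CO2, -0.01 to 0.13 for MT-ATP6, -0.01 to 0.16 for MT-CO3, -0.06 to 0.20 for MT-ND3, -0.05 to 0.19 for MT-ND4L, -0.03 to 0.07 for MT-ND4 and -0.02 to 0.09 for MT-CYB. In WT against V the range was -0.08 to 0.01 for MT-RNR1, 0.00 to 0.08 for MT-ND1, -0.03 to 0.30 for MT-ATP8, -0.14 to 0.04 for MT-ND3 and -0.09 to 0.17 for MT-ND4L. In SA against V the range was -0.22 to 0.11 for MT-ATP8, -0.26 to 0.00 for MT-ND3, -0.14 to 0.13 for MT-ND4L and -0.04 to 0.04 for MT-ND5. In SD against V the range was -0.05 to 0.10 for MT-ND2, -0.12 to 0.03 for MT-ATP6 and -0.15 to 0.03 for MT-CO3.

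With the replicate number as a block, the mitochondrial genes called numbered 6 in SD against WT (1.65% of all genes called), 11 in SD against SA (1.10%), where none was called without the block, 3 in WT against SA (0.167%), 5 in WT against V (3.43%), 10 in SA against V (9.02%) and 5 in SD against V (4.46%). The deviations of same-numbered libraries from the means of their lines correlated between -0.06 and 0.09 over the 6 comparisons, none of 18 above 0.1. In 10 of the 18 checks the libraries correlated best with their own number. In SD against SA the values were 0.09, 0.04 and 0.07 for numbers 1, 2 and 3. Each lay above the highest correlation with another number (-0.02, -0.00 and -0.00). By the limit of 0.1 the numbers were still not taken to pair the libraries. MT-RNR1, MT-RNR2 and NEAT1 nevertheless fell from replicate 1 to replicate 3 in every line. Over the 15 mitochondrial genes, SA and SD shared an order, with replicate 3 lowest for all 15 in both lines. Replicate 1 was the highest for all 15 in SA and for 13 in SD. V and WT departed from it, with V replicate 2 lowest and WT replicate 2 highest for 9 genes each. Pairing by number was not tested for these genes alone. Changes of 1.2-fold were recovered in 22% of simulated cases for SD against WT. The changed genes were drawn from all genes kept by the filter. The 22% is therefore not the recovery for the mitochondrial genes or for the other comparisons. Of the 90 differences, 80 were below 1.2-fold, and genes that were not called may still differ.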
